A study of Mus musculus with 6 samples.

Results

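The 50 genes described here encode the nuclear-encoded subunits of respiratory complexes II, III, IV and V and the mobile carrier cytochrome c, in the pancreas of mice with and without a Myc transgene. They are all symbols in the deposited gene tables that begin with Sdha to Sdhd, Uqcr, Cyc1, Cycs, Cox4 to Cox8 followed by a letter, or Atp5, and they are 50 of 23099 symbols. By complex there were 4 genes of complex II, 9 of complex III, cytochrome c, 19 of complex IV and 17 of complex V. RNA-seq of polyadenylated RNA covered whole pancreas at 8 weeks of age, in 3 wild-type (WT) libraries and 3 Ela1-Myc libraries. Ela1-Myc mice carry Myc under the elastase 1 promoter, which drives expression in the enzyme-secreting acinar cells. No other allele or treatment is given for either group, and whether a group's libraries are different animals is not stated, and p-values therefore cover only how far these samples spread, which may be technical.

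The respiratory chain is built into the inner mitochondrial membrane. Complex II (succinate dehydrogenase) passes electrons from succinate to ubiquinone, complex III passes them from ubiquinol to cytochrome c, complex IV (cytochrome c oxidase) passes them to oxygen, and complex V (ATP synthase) makes ATP from the proton gradient that complexes I, III and IV build. Complexes III, IV and V each combine subunits encoded in the nucleus with subunits encoded in mitochondrial DNA, whereas all subunits of complex II are nuclear. Acinar cells use this ATP for protein synthesis and regulated secretion. The mitochondrially encoded subunits were not analysed here, as none of 13 such genes looked up matched a deposited symbol. A few of the 50 symbols are not classical subunits: Cox4nb is an older name of Emc8, a subunit of a membrane protein insertase of the endoplasmic reticulum, Atp5sl is an older name of Dmac2, an assembly factor of complex I, Atp5s encodes a factor linked to ATP synthase coupling, and Cox7a2l encodes a COX7A relative that joins complexes III and IV in supercomplexes.

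Values are the authors' adjusted FPKM (a per-length count of sequenced fragments), divided by 100000 in every library. They were taken as per length, so levels of different genes were compared and summed. How the authors adjusted them is not given, and library depth is unknown. Change was tested with limma on log2(value + 1) in the 8802 genes with a mean of at least 1, called at a Benjamini-Hochberg adjusted p of 0.05; on this scale the change of low genes is understated. The split between higher and lower genes rests on how libraries are scaled to each other, so each change is given on the deposited scale and after median-of-ratios scaling, in which each library is divided by its median ratio to a common reference. The scaling lowered the median change of all tested genes from 1.22 to 0.23 log2 units, and changed the division of called genes from 99.7% higher and 0.339% lower to 69.6% higher and 30.4% lower.

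Several facts of the libraries bear on every value below. WT replicate 2 held the members at higher values than the other WT libraries, with a median ratio of 4.01 to WT replicate 1 and 2.52 to WT replicate 3 over the 36 tested members above 0 everywhere, all 36 being higher in both cases. Zeros in WT were frequent: 592 to 1426 of the tested genes were listed at 0 in a WT library, against 0 to 29 in an Ela1-Myc library. A zero can be a failed estimate, and 7 members carry a 0 in 2 or more WT libraries, among them genes of housekeeping type such as Atp5b. The RNA integrity number was 7.1 to 7.3 in WT and 7.2 to 8.8 in Ela1-Myc by the sample labels, while the protocol text asks for a higher minimum than 5 of the 6 libraries reach. Digestive enzymes made up 90.8% to 91.1% of the summed values in WT and 60.7% to 72.9% in Ela1-Myc. Myc stood at 34.2 to 52.0 in Ela1-Myc, at 4.10 in WT replicate 2 and was listed at 0 in WT replicates 1 and 3. The parts of RNA integrity and of the enzyme share in the results were not tested.

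Before the values, 5 stretches of promoter sequence show regulatory letters around the start of some of the genes described. Nuclear respiratory factor 1 (NRF1) is a transcription factor of respiratory genes, and MYC with its partner MAX binds the E-box CACGTG. Windows from 250 bases before to 50 bases after a RefSeq transcription start (GRCm38.p6) were found for 38 of the 50 members. The NRF1 core GCATGCGC, added after the first sequences had been seen, was in 8 of them (21.1%) against 3.05% of all 27025 genes with such a window. The longer NRF1 motif, which is that core preceded by GC, was in 4 (10.5%) against 1.07%. CACGTG was in 5 members (13.2%) against 8.09%, all 5 of them in the complex V group: Atp5f1, Atp5g1, Atp5g3, Atp5l and Atp5sl. The ETS motif CCGGAAGT was in 4 members (10.5%) against 4.31%, and the YY1 motif AAGATGGC in 4 (10.5%) against 3.19%. Of the 8 members with the NRF1 core, 3 (Cycs, Cox6a1 and Atp5k) were called higher on the deposited scale described below and 5 were not. Of the 5 with CACGTG, 2 were called and 3 were not. The shares called higher were 46.5% of the 43 tested members and 70.2% of all tested genes. Both strands were searched, and a match describes letters, not binding.

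The sequences below are read 5′ to 3′ towards the start site, with motif matches in capitals. Cytochrome c (chr6:50566570-50566819, minus strand) and Cox6a1 (chr5:115348959-115349208, minus strand) are shown as examples of the NRF1 core and of the longer motif.
Cycs: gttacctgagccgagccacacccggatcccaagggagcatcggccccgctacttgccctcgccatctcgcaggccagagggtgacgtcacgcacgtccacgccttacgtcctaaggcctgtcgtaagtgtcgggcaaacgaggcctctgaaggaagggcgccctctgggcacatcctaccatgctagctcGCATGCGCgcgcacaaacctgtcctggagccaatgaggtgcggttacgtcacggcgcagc
Cox6a1: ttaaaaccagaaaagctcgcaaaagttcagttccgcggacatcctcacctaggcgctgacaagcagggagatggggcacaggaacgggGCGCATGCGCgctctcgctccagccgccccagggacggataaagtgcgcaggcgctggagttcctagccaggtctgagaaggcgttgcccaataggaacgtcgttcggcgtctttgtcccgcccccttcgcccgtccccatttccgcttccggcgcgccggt
The 3 genes Atp5g1, Atp5g2 and Atp5g3 encode the same mature c subunit of the ATP synthase ring, and they are shown because their promoters carry different motifs. Atp5g2 (chr15:102671048-102671297, minus strand) holds the NRF1 motif, while Atp5g1 (chr11:96075658-96075687, minus strand) and Atp5g3 (chr2:73911547-73911576, minus strand) hold the E-box, shown with the bases around it. These 2 stretches lie before the RefSeq start used here but inside the RefSeq gene spans, which reach further upstream, and the Atp5g1 stretch also lies inside the deposited gene span (96072793 to 96075694).
Atp5g1: agggactccgaaCACGTGggtgggggagct
Atp5g2: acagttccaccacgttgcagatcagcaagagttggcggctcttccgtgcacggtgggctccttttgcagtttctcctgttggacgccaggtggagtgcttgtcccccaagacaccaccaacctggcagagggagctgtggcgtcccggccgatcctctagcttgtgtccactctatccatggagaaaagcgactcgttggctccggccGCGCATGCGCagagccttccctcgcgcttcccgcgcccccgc
Atp5g3: acccctgcctggCACGTGcaaggagcgagg

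Over all complexes, 20 respiratory chain genes rose in Ela1-Myc on the deposited scale and 5 after scaling. Of the 43 members tested, 20 were called higher, 0 lower and 23 were not called, with a median change of 1.61 log2 units. That is 46.5% called higher, where 70.2% of all 8802 genes were. After scaling 5 members were called higher and 0 lower, 11.6% against 18.3% of all genes called higher and 8.02% called lower, with a median of 0.27 against 0.23. By limma's unadjusted p under 0.05 after scaling, 9 members were higher and 4 lower of 43, where 2517 and 1153 of the 8802 genes were. In these fits over all 6 libraries the share of members called higher was thus below that of all genes on both scales. After scaling so was the share called lower. Without WT replicate 2 the share called higher was above that of all genes on both scales, and with array weights on the deposited scale, as given below. The deposited-scale median of the members, 1.61, was above the 1.22 of all genes, so a lower share called is not a smaller change. On the deposited scale only 0.239% of all genes were called lower, so 0 of 43 members says little there. The 5 called after scaling were Cycs, Uqcr10, Cox7a1, Cox6b2 and Atp5sl, and the first 4 of them carry a 0 in 2 or more WT libraries.

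A WT entry of 0 can be a failed estimate, and Cox7a1 and Cox6b2, at most 0.334 in WT, passed the filter through Ela1-Myc. The 36 tested members above 0 in all 6 libraries are therefore also given alone, among them Atp5sl, whose WT mean was under the filter. Of these, 13 were called higher and 0 lower on the deposited scale, with a median of 1.5 log2 units, beside 4445 higher and a median of 1.06 for the 6995 genes of the same kind. After scaling 1 was called higher, the same Atp5sl, and 0 lower, where 543 and 706 of those 6995 genes were, 20 changes were positive and 16 negative, and the median was 0.09 against 0.04 for those genes. The lowest Ela1-Myc value exceeded the highest WT value for 30 of the 43 tested members on the deposited scale, where 75.3% of all genes did so and 0.534% lay wholly below WT, as 0 members did. After scaling 8 members lay above WT and 8 below, where 30.4% and 17.2% of all genes did.

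**Figure D1:**
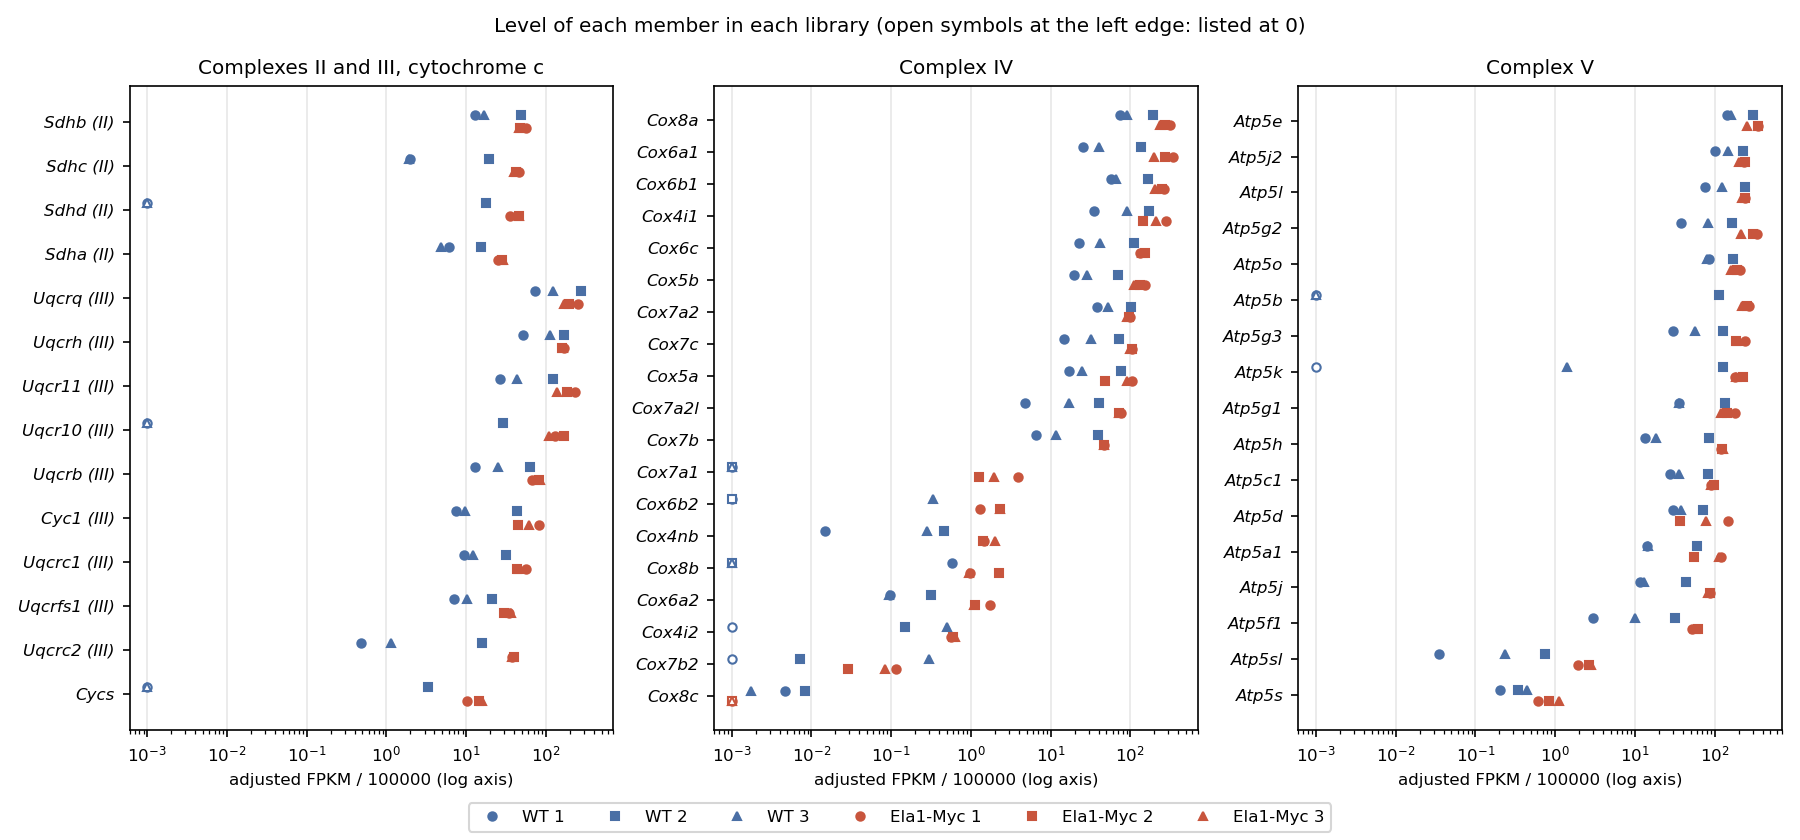
Level of each of the 50 members in each library on a log axis (adjusted FPKM divided by 100000), WT in blue and Ela1-Myc in red, with one marker shape per replicate and open symbols at the left edge for values listed at 0. WT replicate 2 (blue squares) lies to the right of the other WT libraries for most members, and Sdhd, Uqcr10, Cycs and Atp5b have 2 open WT symbols.

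How many members were called depended on which library was left out. On the deposited scale 11, 42 and 13 of 44 tested members were called higher when WT replicate 1, 2 or 3 was dropped. The counts were 9 of 41, 10 of 42 and 9 of 42 when it was Ela1-Myc replicate 1, 2 or 3. In these fits 58.7%, 81.1%, 62.0%, 58.9%, 61.8% and 49.5% of all genes were called higher. After scaling the counts were 1, 10 and 2 of 44 for the same WT libraries dropped in turn. For the Ela1-Myc ones they were 0 of 41, 1 of 42 and 0 of 42. The shares of all genes called higher were then 18.5%, 20.8%, 11.1%, 14.6%, 6.29% and 5.61%. No member was called lower in any of these. When WT replicate 2 alone was set against the 3 Ela1-Myc libraries, a comparison added after the data had been seen and in which its spread is assumed to be that of the Ela1-Myc libraries, 9 of 46 members were called higher, where 31.0% of all genes were. The members' median was then 0.59 against 0.85 for all genes, and after scaling -0.55 against 0.08, with 1 of 46 members called where 11.2% of all genes were.

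Complex II, the only complex with no mitochondrially encoded subunit, had 3 of its 4 genes called higher on the deposited scale and 0 after scaling. Of all 8802 tested genes, 70.2% and 18.3% were called higher on these scales. Sdha, the flavoprotein that oxidises succinate, stood at 6.06, 15.1 and 4.85 in WT replicates 1 to 3 and at 24.7, 28.2 and 29.1 in Ela1-Myc replicates 1 to 3. Its groups did not overlap, and its log2 change was 1.70 ± 0.585 (SE; limma adjusted p = 0.019), or 0.29 ± 0.302 after scaling (adjusted p = 0.484). Sdhb, the iron-sulfur subunit, was at 13.0, 48.9 and 16.8 in WT against 56.4, 47.2 and 45.7 in the Ela1-Myc libraries. WT replicate 2 lay within the Ela1-Myc range, and the change was not called on either scale (1.13 ± 0.710 and -0.34 ± 0.328; adjusted p = 0.161 and 0.458).

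The membrane anchors of complex II had larger values of Ela1-Myc over WT than its catalytic subunits, a difference that was not tested. Sdhc (GRCm38 chromosome 1, 171129157 to 171150603), which with Sdhd binds heme and ubiquinone, was at 1.97, 19.1 and 1.93 in WT against 45.5, 42.1 and 39.8 in the Ela1-Myc libraries. Its Ela1-Myc values lay within a narrow band above every WT value, and its log2 change was 2.96 ± 0.722 (adjusted p = 0.00286), or 1.65 ± 0.582 after scaling (adjusted p = 0.0774). Sdhd was listed at 0 in WT replicates 1 and 3, measured 17.8 in WT replicate 2 and reached 35.4, 45.7 and 45.6 in the Ela1-Myc libraries (adjusted p = 0.0015, with the zeros taken as measured, and 0.0738 after scaling). Within a library the ratio of Sdhc to Sdhb, chosen after the values had been seen and given without a test, was 0.151, 0.392 and 0.115 in WT against 0.807, 0.892 and 0.871 in the Ela1-Myc libraries. Such a ratio does not depend on how libraries are scaled to each other.

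In complex III, 4 of the 9 genes (44.4%) were called higher on the deposited scale and 1, Uqcr10, after scaling. The shares of all tested genes were 70.2% and 18.3%. Uqcrc1 and Uqcrc2 encode the paired core proteins on the matrix side. Uqcrc1 stood at 9.50, 31.6 and 12.3 in WT against 55.8, 42.9 and 45.7 in the Ela1-Myc libraries. All 3 Ela1-Myc values were above WT, and the change of 1.56 ± 0.675 log2 units narrowly missed the threshold (adjusted p = 0.0514; 0.11 ± 0.297 and 0.805 after scaling). Uqcrc2 (chromosome 7, 120635189 to 120659523) stood at 0.479, 15.9 and 1.14 in WT against 37.3, 40.1 and 37.1 in the Ela1-Myc libraries. It had the largest deposited-scale change of the 36 tested members above 0 everywhere, 3.38 ± 0.758 (adjusted p = 0.0017), while its scaled change of 2.24 ± 0.753 was not called (adjusted p = 0.0677). The ratio of Uqcrc2 to Uqcrc1, 2 proteins that are held in equal number in the complex, was 0.0504, 0.504 and 0.0921 in WT against 0.669, 0.935 and 0.811 in the Ela1-Myc libraries. Like that of Sdhc to Sdhb it was highest among WT libraries in replicate 2, and it too was chosen after the values had been seen.

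The redox subunits of complex III, which carry its electrons, lay on either side of the core protein Uqcrc1. On both scales Cyc1 changed more than Uqcrc1 and Uqcrfs1 changed less. Both changed less than Uqcrc2, which is named above for its largest change, and these differences were not tested. Cyc1, the cytochrome c1 that hands electrons to cytochrome c, was at 7.39, 43.8 and 9.77 in WT against 82.1, 45.0 and 60.6 in the Ela1-Myc libraries. WT replicate 2 came just under the lowest Ela1-Myc library, and the change was 1.95 ± 0.758 (adjusted p = 0.0328), or 0.51 ± 0.452 after scaling (adjusted p = 0.421). Uqcrfs1, the Rieske iron-sulfur protein, was at 7.10, 21.0 and 10.2 in WT against 34.5, 29.4 and 36.7 in the Ela1-Myc libraries. It was called higher on the deposited scale (1.45 ± 0.620; adjusted p = 0.0489) and lay at 0.02 ± 0.247 after scaling (adjusted p = 0.965). Its ratio to Uqcrc1 was 0.747, 0.667 and 0.827 in WT against 0.619, 0.685 and 0.803 in the Ela1-Myc libraries, so the 2 groups overlapped.

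Among the small subunits of complex III was the smallest deposited-scale change of the 36 tested members above 0 everywhere, that of Uqcrq. Uqcrq, a small subunit at the membrane, was at 72.6, 275 and 122 in WT against 252, 195 and 168 in the Ela1-Myc libraries, so that WT replicate 2 was the highest library of all. Its change was 0.58 ± 0.812 on the deposited scale (adjusted p = 0.516) and -0.93 ± 0.361 after scaling (adjusted p = 0.0993). Uqcrh, the acidic hinge protein between cytochromes c1 and c, was at 52.1, 167 and 114 in WT against 169, 157 and 163 in the Ela1-Myc libraries, with changes of 0.70 ± 0.791 and -0.80 ± 0.321 (adjusted p = 0.422 and 0.106). Both were called lower under quantile normalization. Uqcr10 was listed at 0 in WT replicates 1 and 3, measured 29.3 in WT replicate 2 and reached 128, 166 and 108 in the Ela1-Myc libraries (adjusted p = 0.000606; after scaling, 0.0427).

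Cytochrome c itself, the soluble carrier that also triggers caspase activation when it leaves the mitochondrion, was low beside the complexes it connects. Cycs was listed at 0 in WT replicates 1 and 3 and stood at 3.29 in WT replicate 2, against 10.2, 14.4 and 15.7 in Ela1-Myc. It was called higher on both scales, with the zeros taken as measured values (adjusted p = 0.000201; 0.0274 after scaling). Cycs has many processed pseudogenes, as have other respiratory genes, and reads shared with such copies make single values uncertain.

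In complex IV, 13 of 19 genes passed the filter on low values. Of these 5 (38.5%) were called higher on the deposited scale and 2 after scaling, against 70.2% and 18.3% of all tested genes. The broadly expressed subunits were well measured. Cox4i1, the ubiquitous form of the subunit through which ATP inhibits the enzyme, stood at 34.8, 171 and 92.1 in WT against 280.2, 143 and 209 in the Ela1-Myc libraries. Its groups overlapped, with changes of 1.30 ± 0.837 and -0.20 ± 0.423 (adjusted p = 0.169 and 0.735). Cox5a, a matrix-side subunit, was at 16.9, 76.8 and 24.6 in WT against 105, 47.6 and 91.7 in the Ela1-Myc libraries, with changes of 1.25 ± 0.787 and -0.23 ± 0.409 (adjusted p = 0.161 and 0.686). Ela1-Myc replicate 2 was the lowest Ela1-Myc library for both genes, as it was for Cyc1.

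Cox6a1 and Cox7a2l had the largest deposited-scale changes of complex IV among genes above 0 everywhere. Cox6a1, the ubiquitous form of a regulatory subunit, was at 25.8, 136 and 40.8 in WT against 341, 274 and 201 in the Ela1-Myc libraries. It was called higher on the deposited scale by 2.32 ± 0.840 (adjusted p = 0.024) and not after scaling (0.82 ± 0.447; adjusted p = 0.207). Cox7a2l (chromosome 17, 83501917 to 83514333) was at 4.84, 40.4 and 17.1 in WT against 76.3, 71.6 and 71.9 in the Ela1-Myc libraries, with a change of 2.18 ± 0.777 (adjusted p = 0.022), or 0.74 ± 0.484 after scaling (adjusted p = 0.282). Its relative Cox7a2, the ubiquitous COX7A subunit, was at 38.2, 101 and 52.8 in WT against 100.2, 95.7 and 90.9 in the Ela1-Myc libraries. It had the smallest change of the tested complex IV genes above 0 everywhere, 0.69 ± 0.753 (adjusted p = 0.408), and its scaled change was -0.81 ± 0.286 (adjusted p = 0.0774).

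The makeup of the COX7A set therefore separated the groups in a way that does not rest on scaling. Cox7a2l made up 11.2%, 28.5% and 24.4% of the summed Cox7a1, Cox7a2 and Cox7a2l values in WT and 42.3%, 42.5% and 43.7% in Ela1-Myc. The means were 21.4% ± 9.03 and 42.8% ± 0.747 (SD, n = 3 each; exact two-sided permutation p = 0.1, the lower limit for 3 libraries a group; 0.192 adjusted over the 23 single-value comparisons). Cox7a2 made up 78.6% ± 9.03 in WT, against 55.8% ± 0.857 in the Ela1-Myc libraries (SD, n = 3 each; exact permutation p = 0.1). The heart and muscle form Cox7a1 had no entry above 0 in WT, and its Ela1-Myc values were 3.95, 1.27 and 1.97, at most 2.19% of the set.

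Tissue-restricted isoforms of complex IV were all scarce. The muscle form Cox6a2 stood at 0.0979, 0.319 and 0.0947 in WT against 1.73, 1.14 and 1.09 in the Ela1-Myc libraries, under the filter on low values. It was 0.281% ± 0.0839 of the COX6A pair in WT, against 0.487% ± 0.0652 in the Ela1-Myc libraries (SD, n = 3 each; exact permutation p = 0.1, adjusted 0.192). Cox8b, a muscle and brown fat form, was at 0.586 in WT replicate 1, listed at 0 in WT replicates 2 and 3 and reached 0.981, 2.26 and 0.956 in the Ela1-Myc libraries. The testis form Cox6b2 was listed at 0 in WT replicates 1 and 2, at 0.334 in WT replicate 3 and reached 1.32, 2.30 and 2.31 in the Ela1-Myc libraries, at most 1.12% of the COX6B pair. Cox4i2, a form of lung and of oxygen-sensing cells, was listed at 0 in WT replicate 1 and stood at 0.15 and 0.502 in the other WT libraries, against 0.565, 0.596 and 0.641 in Ela1-Myc. Testis-type Cox7b2 stayed at or under 0.302 in all 6 libraries. For Cox8c the WT entries are below 0.01 and every Ela1-Myc entry is listed at 0, so it was not measured in any useful sense.

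Markers of muscle and brown fat, which use some of these isoforms, were read in the same libraries. The 8 striated muscle markers summed to 0.0904 to 0.407 in WT and 1.83 to 11.2 in Ela1-Myc, with 5 or 6 of the 8 at 0 in each WT library and 1 to 3 in each Ela1-Myc library. Creatine kinase Ckm, the most abundant of them, had no entry above 0 in WT, and its Ela1-Myc values were 10.4, 0.630 and 1.90. Acta1, skeletal muscle actin, was at 0.0814, 0.216 and 3.14 in those libraries. Ckm was highest in replicate 1, as Cox7a1 and Cox6a2 were, whereas Acta1, Tnnt3, Mylpf, Actn3, Mb and Myh4 were highest in replicate 3. Cox6a2 was nearly equal in replicates 2 and 3 (1.14 and 1.09). Myh6 was at 0 in all 3 Ela1-Myc libraries. The brown fat list summed to at most 0.703 in any library, and its Ucp1 entries equal those of Cox8c in every library, so that Ucp1 was not measured either. The part of muscle RNA in the Cox7a1 and Cox6a2 values was not tested. In such bulk samples, fewer cells of a type and less RNA per cell cannot be told apart.

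The ubiquitous partners of these isoforms kept nearly all of the signal. Cox8a took 99.7% ± 0.449 of the COX8 set in WT, against 99.5% ± 0.276 in the Ela1-Myc libraries (SD, n = 3 each; exact permutation p = 0.5). In level it was at 75.0, 192 and 89.7 in WT against 316, 271 and 237 in the Ela1-Myc libraries (1.32 ± 0.786, adjusted p = 0.14; -0.19 ± 0.316 after scaling, adjusted p = 0.667). Cox6b1 went from 97.4 ± 61.7 to 239 ± 31.6 (SD, n = 3 each), which was not called (1.45 ± 0.794; adjusted p = 0.111). Cox7b, an X-linked subunit, was at 6.54, 39.1 and 11.7 in WT against 47.4, 46.4 and 46.6 in the Ela1-Myc libraries, and it was not called on either scale (adjusted p = 0.0578 and 0.763). The 3 Ela1-Myc values of Cox7b lay within an SD of 0.536, against 17.5 in WT.

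In complex V, 16 of 17 genes were tested. Of these 7 (43.8%) were called higher on the deposited scale and 1 after scaling, against 70.2% and 18.3% of all tested genes. The one called on both scales was Atp5sl, which encodes no subunit of the synthase. It stood at 0.0349, 0.748 and 0.236 in WT against 1.95, 2.69 and 2.81 in the Ela1-Myc libraries, without overlap, and its change was 1.41 ± 0.272 (adjusted p = 0.000636), or 0.79 ± 0.225 after scaling (adjusted p = 0.0437). With every WT value under 1 it passed the filter through its Ela1-Myc values, so it had to differ. The catalytic F1 head consists of alternating alpha and beta subunits. Atp5a1, the alpha subunit, was at 14.3, 60.6 and 14.8 in WT against 121, 55.5 and 115 in the Ela1-Myc libraries. Ela1-Myc replicate 2 fell under WT replicate 2, and the change was 1.92 ± 0.788 (adjusted p = 0.0417), or 0.44 ± 0.437 after scaling (adjusted p = 0.467). Atp5b, the beta subunit, was listed at 0 in WT replicates 1 and 3, at 115 in WT replicate 2 and reached 273, 254 and 218 in the Ela1-Myc libraries (adjusted p = 0.00264; after scaling, 0.0861). A catalytic subunit at 0 beside an alpha subunit above 10 in the same libraries shows how the listed zeros limit these values.

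The peripheral stalk genes of ATP synthase spread over the range of the complex. Atp5f1 (chromosome 3, 105942863 to 105960248), the stalk's b subunit, was at 3.01, 31.5 and 10.0 in WT against 52.1, 62.8 and 57.0 in the Ela1-Myc libraries, a change of 2.37 ± 0.761 (adjusted p = 0.0135), or 0.96 ± 0.525 after scaling (adjusted p = 0.209). Atp5j and Atp5h, the other stalk genes called, changed by 2.12 ± 0.736 and 2.10 ± 0.818 (adjusted p = 0.0194 and 0.0336), with scaled changes of 0.66 ± 0.350 and 0.62 ± 0.448 (adjusted p = 0.199 and 0.331). Atp5o, which joins the stalk to the head, did not follow them (0.82 ± 0.773; adjusted p = 0.335; -0.68 ± 0.327 after scaling). The ratio of Atp5f1 to Atp5o, chosen after the values had been seen, was 0.0351, 0.187 and 0.125 in WT against 0.251, 0.325 and 0.351 in the Ela1-Myc libraries.

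The smallest changes of the complex were those of Atp5j2 and Atp5e, its most abundant genes. Atp5e, the epsilon subunit of the central stalk, was at 141, 306 and 160.2 in WT against 349, 352 and 252 in the Ela1-Myc libraries, with changes of 0.72 ± 0.776 and -0.80 ± 0.335 (adjusted p = 0.404 and 0.12). Atp5j2, a small membrane subunit, was at 99.8, 225 and 147 in WT against 235, 239 and 204 in the Ela1-Myc libraries. WT replicate 2 lay inside the Ela1-Myc range for both, and the Atp5j2 changes were 0.59 ± 0.774 and -0.92 ± 0.303 (adjusted p = 0.486 and 0.0648). Under quantile normalization 6 members were called lower, namely Uqcrq, Uqcrh, Cox7a2, Atp5e, Atp5j2 and Atp5l, and 4 higher, namely Cycs, Uqcr10, Sdhc and Uqcrc2. For all genes that setting gave 11.3% higher and 20.0% lower.

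The remaining members were spread over the same range. Cox5b, a zinc-binding subunit of complex IV, was called higher on the deposited scale (1.92 ± 0.769; adjusted p = 0.0376) and not after scaling, where the groups overlapped (0.43 ± 0.338; adjusted p = 0.363). On the deposited scale its 3 Ela1-Myc values of 113 to 151 lay above the WT values of 19.5 to 70.0. Atp5k, a small membrane subunit of ATP synthase, was listed at 0 in WT replicate 1, stood at 126 and 1.40 in WT replicates 2 and 3 and reached 181, 225 and 183 in the Ela1-Myc libraries (adjusted p = 0.00504; after scaling, 0.122). Uqcr11, Uqcrb, Cox6c, Cox7c, Atp5c1, Atp5d and Atp5l were called on neither scale. Of the 7 members under the filter on low values, Cox4nb was at 0.0150 to 0.466 in WT and 1.43 to 1.99 in Ela1-Myc, and Atp5s at 0.204 to 0.444 and 0.606 to 1.11, without overlap in either case, though Atp5s overlapped after scaling. The other 5 are the tissue-restricted isoforms Cox4i2, Cox6a2, Cox7b2, Cox8b and Cox8c.

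The 3 genes for the c subunit, whose promoter stretches are printed above, had overlapping proportions in the groups. Atp5g1 was at 35.4, 133 and 35.8 in WT against 178, 143 and 121 in the Ela1-Myc libraries, with overlapping groups. Atp5g2 was at 37.7, 166 and 83.2 in WT against 338, 301 and 214 in the Ela1-Myc libraries. Atp5g3 was at 29.7, 126 and 56.1 in WT against 239, 188 and 195 in the Ela1-Myc libraries. The latter pair did not overlap between the groups, but none of the 3 was called on the deposited scale (adjusted p = 0.133, 0.0655 and 0.0614) or after scaling (0.838, 0.635 and 0.572). Of the summed c subunit values, Atp5g1 made up 28.7% ± 7.35 in WT and 23.1% ± 0.473 in Ela1-Myc, Atp5g2 41.1% ± 5.70 and 44.2% ± 3.67, and Atp5g3 30.2% ± 1.65 and 32.7% ± 3.64 (SD, n = 3 each). These shares did not separate the groups (exact two-sided permutation p = 0.4 for each). With a library left out the differences ran from -9.83 to -2.83 percentage points for Atp5g1, 0.903 to 6.33 for Atp5g2 and 0.546 to 4.07 for Atp5g3, and without WT replicate 3 the Atp5g1 shares no longer overlapped (exact permutation p = 0.1).

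**Figure D2:**
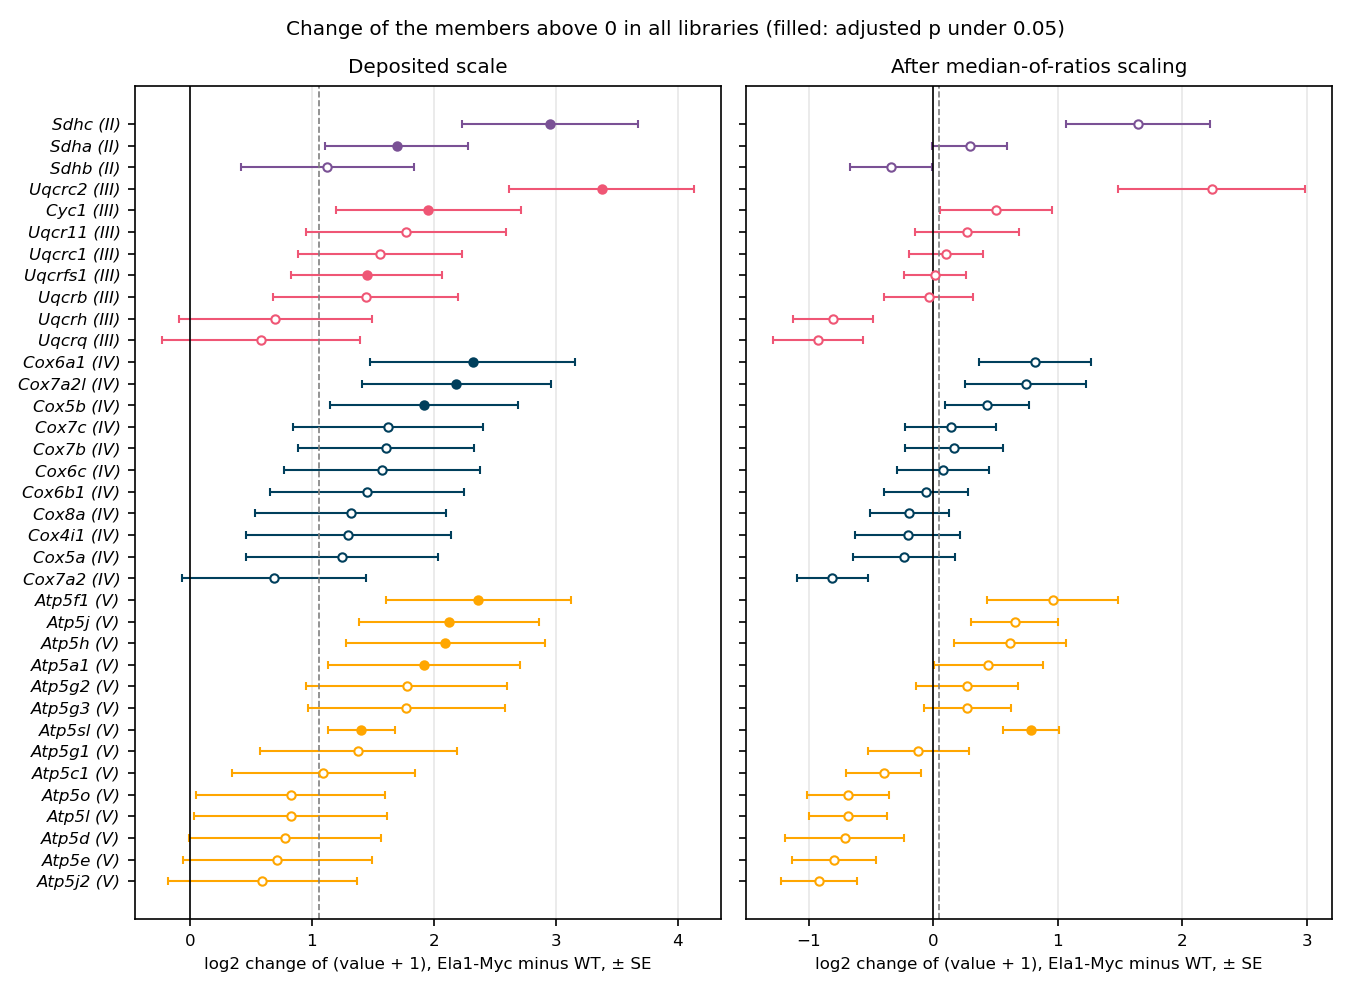
Log2 change of (value + 1), Ela1-Myc minus WT, with its SE, for the 36 tested members above 0 in all libraries, coloured by complex, on the deposited scale (left) and after median-of-ratios scaling (right). Filled points passed an adjusted p of 0.05, 13 on the left and 1 on the right, and the dashed line is the median of the 6995 tested genes above 0 everywhere, 1.06 and 0.04.

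Within the members, the change tended to be smaller at higher levels. Over the 36 tested members above 0 everywhere, the deposited-scale change correlated with the log2 mean level at Spearman rho = -0.43 (Pearson r = -0.36), and after scaling at rho = -0.54 (r = -0.52), both across genes that share the same 6 libraries. Over the 6995 genes of that kind rho was 0.24 on the deposited scale and -0.10 after scaling. Members were split at a mean of 100 over all libraries, a boundary set after the data had been seen. On the deposited scale 1 of 15 abundant members and 12 of 21 less abundant ones were called higher. Of those 6995 genes 63.55% were called higher, and no share was taken for genes of matching level. The median changes of the abundant and the less abundant members were 1.32 and 1.62, or -0.19 and 0.29 after scaling. The 1 abundant member called was Cox6a1.

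Summed by complex, levels were higher in every Ela1-Myc library than in every WT library on the deposited scale. Complex II genes summed to 21.0, 101 and 23.6 in WT and 162, 163 and 160.2 in Ela1-Myc, the narrowest Ela1-Myc range of the 4. Complex III summed to 432 ± 302 in WT and 947 ± 109 in Ela1-Myc, complex IV to 664 ± 453 and 1680.4 ± 219.9, and complex V to 1136 ± 741 and 2597 ± 272 (SD, n = 3 each). For each complex the exact two-sided permutation p was 0.1, adjusted 0.192. After scaling the sums overlapped between the groups, with 615 ± 174 against 545 ± 106 for complex III, 952 ± 238 against 965 ± 182 for complex IV and 1648 ± 346 against 1495 ± 283 for complex V. The scaled complex II sum was 65.4 ± 33.9 in WT, below the Ela1-Myc 92.8 ± 11.8, again with WT replicate 2 (104.3) as the highest library.

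**Figure D3:**
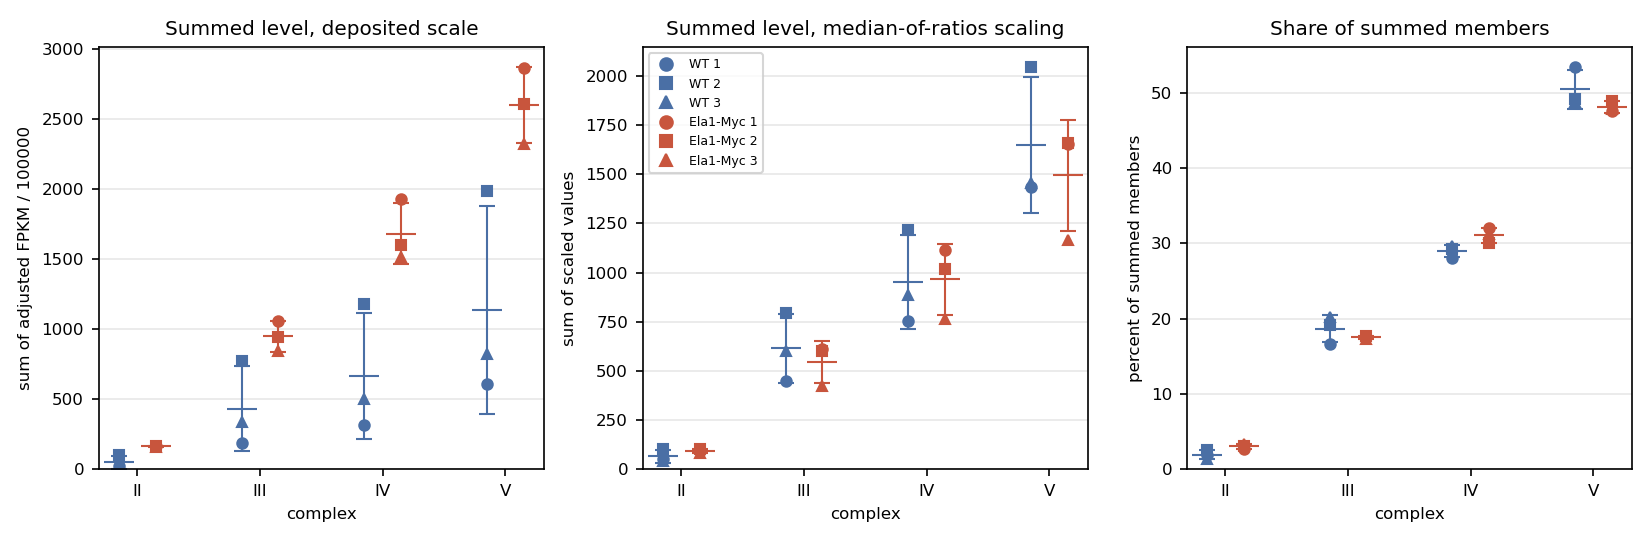
Summed member values per library for complexes II to V on the deposited scale (left), after median-of-ratios scaling (middle) and as a percent of all members (right), with one symbol per library and horizontal bars and whiskers for mean and SD (n = 3). On the left all red symbols lie above the blue ones of the same complex, in the middle the groups overlap, and on the right complexes II and IV separate.

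The proportions of the complexes to each other do not depend on scaling. Complex II genes took 1.86%, 2.50% and 1.40% of the summed members in WT and 2.69%, 3.07% and 3.30% in Ela1-Myc, and complex IV genes 28.0%, 29.2% and 29.7% against 32.0%, 30.03% and 31.2%. Neither overlapped between the groups (exact permutation p = 0.1 each, adjusted 0.192). Complex III took 18.6% ± 1.8 in WT and 17.5% ± 0.176 in Ela1-Myc, and complex V 50.5% ± 2.61 and 48.1% ± 0.746 (SD, n = 3 each; exact permutation p = 0.4 and 0.2). These values move with the WT zeros: over the members above 0 in all libraries, the difference of Ela1-Myc minus WT was 0.697 percentage points for complex II in place of 1.10, -1.81 in place of -1.10 for complex III, 5.46 in place of 2.13 for complex IV and -4.35 in place of -2.35 for complex V (exact permutation p = 0.4 for complex III and 0.1 for the others). With a library left out, complex III ran from -2.09 without WT replicate 1 to -0.337 without WT replicate 3, and complex V from -3.20 without WT replicate 3 to -0.852 without WT replicate 1. Of all summed values outside the digestive enzymes the members made up 1.90% ± 0.343 in WT and 2.09% ± 0.0515 in Ela1-Myc, with WT replicate 2 the highest library at 2.27% (exact permutation p = 0.4). Over rows above 0 in all libraries the share was 1.97% ± 0.329 in WT, below all of the Ela1-Myc values (2.54% ± 0.0521; exact permutation p = 0.1). Without WT replicate 2 the difference was 0.376 in place of 0.192 percentage points, and without WT replicate 3 it was 0.0364. With the enzymes counted in, the share was 0.173% ± 0.0325 in WT, against 0.679% ± 0.149 in the Ela1-Myc libraries (SD, n = 3 each; exact permutation p = 0.1).

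**Figure D4:**
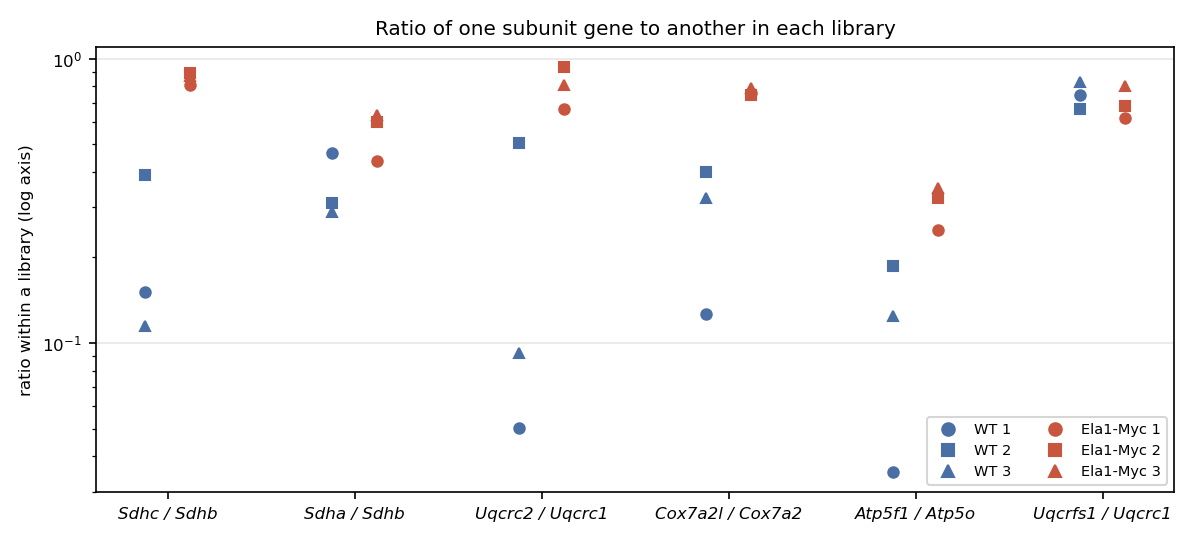
Ratio of one subunit gene to another within each library, on a log axis, for 6 pairs chosen after the values had been seen. The ratios of Sdhc to Sdhb, Uqcrc2 to Uqcrc1, Cox7a2l to Cox7a2 and Atp5f1 to Atp5o lie higher in all 3 Ela1-Myc libraries, with WT replicate 2 nearest to them, while those of Sdha to Sdhb and Uqcrfs1 to Uqcrc1 overlap.

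Other genes of the pathway were counted in the same fits, in which 70.2% of all genes were called higher on the deposited scale, and 18.3% higher and 8.02% lower after scaling. Of 36 complex I subunits 12 were called higher and 1 lower on the deposited scale, with a median of 1.27, while scaling left 0 higher and 3 lower, at a median of -0.19. Assembly factors of complex IV were called higher for 14 of 20 tested genes, and 3 higher and 2 lower after scaling. The assembly lists of complexes II and III had 1 of 4 and 3 of 4 genes called higher, and after scaling 1 lower in the first and 1 higher in the second. Lrpprc, which stabilises mitochondrial messenger RNAs, was called on both scales, by 1.99 ± 0.315 (adjusted p = 0.000165) and 1.23 ± 0.256 (adjusted p = 0.0171). All 5 genes for assembly and regulation of complex V were called higher on the deposited scale and none after scaling. Among them Atpif1, the inhibitor of ATP hydrolysis by the synthase, stood at 13.5, 30.03 and 11.4 in WT against 103, 84.4 and 66.4 in the Ela1-Myc libraries (2.25 ± 0.699, adjusted p = 0.0112; 0.78 ± 0.353 after scaling, adjusted p = 0.142).

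Genes that feed the chain, export its product or regulate it are read against the same shares. All 13 TCA cycle genes were called higher on the deposited scale, with a median of 2.02, and 0 in either direction after scaling, with a median of 0.76. Of the 6 carriers and pores for ATP, ADP and phosphate 5 were called higher, with 2 still called after scaling. The ADP/ATP carrier Slc25a4 was listed at 0 in WT replicates 1 and 3, at 3.92 in WT replicate 2 and reached 58.4, 59.5 and 46.3 in the Ela1-Myc libraries (adjusted p = 2.69e-05; after scaling, 0.0064). Hccs, which attaches heme to cytochrome c, was called on both scales, by 1.19 ± 0.248 (adjusted p = 0.00102) and 0.62 ± 0.161 (adjusted p = 0.0337), within a heme and coenzyme Q list of which 8 of 9 genes were called higher and 3 after scaling. Of 8 tested regulators of mitochondrial biogenesis 7 were called higher, and 1 higher and 1 lower after scaling. The one called higher on both scales was Pprc1, a coactivator of NRF1, by 1.47 ± 0.290 (adjusted p = 0.000715) and 0.68 ± 0.180 (adjusted p = 0.0352). NRF1's own gene Nrf1 was called on the deposited scale only, by 1.15 ± 0.250 (adjusted p = 0.0014; 0.39 ± 0.193 after scaling, adjusted p = 0.174). Lrpprc, Hccs, Pprc1 and Nrf1 had WT means under the filter and passed it through Ela1-Myc, so they had to differ.

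Markers of other cell types were read in the same libraries. Acinar markers were present in every library, summing to 226350.0 to 696420.0 in WT and 136530.0 to 302170.0 in Ela1-Myc. The 6 macrophage markers summed to 0.711 to 46.1 in WT and 243 to 809 in Ela1-Myc, the 5 stellate and fibroblast markers to 45.3 to 93.8 and 303 to 463, and the 6 duct markers to 4.44 to 76.1 and 131 to 278. Lymphocyte markers summed to 0 to 33.3 and 14.7 to 135, endothelial markers to 10.4 to 19.2 and 32.2 to 35.0, adipocyte markers to 15.04 to 111 and 83.7 to 242, erythroid markers to 0.00187 to 565 and 359 to 799, and islet markers to 0 to 2476 and 2442 to 3358. These sums are on the deposited scale. On that scale the macrophage, stellate, duct and endothelial sums did not overlap between the groups, while the lymphocyte, adipocyte, erythroid and islet sums did. Scaled sums are not given, and the separation of the groups may not hold for them. On the deposited scale 6 of 6 macrophage, 6 of 6 lymphocyte, 6 of 7 islet, 4 of 5 stellate and 4 of 5 tested duct markers were called higher. The counts were 3 of 5 for endothelial, 3 of 4 for adipocyte and 0 of 4 for erythroid markers, where 70.2% of all genes were called higher. Acinar markers went the other way, with 0 of 7 higher and 3 lower, where 0.239% of all genes were called lower. After scaling 6 of 7 acinar markers were called lower, where 8.02% of all genes were. In WT replicate 1 all 7 islet markers were at 0. The part of these cells in the respiratory gene values was not tested.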

How the data were processed

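The authors deposited 1 table per library, with 1 value per gene headed as an adjusted FPKM per the file headers, with the adjustment not given in the sources used here. Alignment tools TopHat2 2.0.4 and Bowtie, the quantifier Cufflinks 2.0.2, and CASAVA 1.8, affy and FastQC 0.9.4 appear beside the build GRCm38 (mm10), per the submitters' processing notes. Libraries were made with a stranded dUTP kit, per the labels' protocols. Because they are far larger than FPKM usually are, values were divided by 100000, which leaves ratios as they were. The 23422 rows carry 23099 symbols, and of rows sharing a symbol only that of highest mean stayed. Depth is unknown, so no counting interval is given.

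Groups follow the genotype label (3 WT, 3 Ela1-Myc). Genes with a mean of at least 1 entered a limma fit (version 3.58.1, R 4.3.3) of log2(value + 1), group only, with an intensity trend, two-sided and adjusted over all tested genes; the fit was tested on simulated data. Size factors for median-of-ratios scaling came from tested genes above 0 in all 6 libraries. Single values per library were compared by exact two-sided permutation tests in Python 3.11.15, and figures were drawn with matplotlib 3.10.9. The alternatives covered scaling, pseudocounts of 0.1 and of 1 on the deposited scale, filters, array weights and each library left out.

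Genes given in full are the catalytic and core subunits, the isoform sets and, in complexes III, IV and V, the 2 largest and 2 smallest changes after scaling among genes above 0 everywhere; Uqcr10, Uqcr11, Cox5b, Atp5h, Atp5j, Atp5k, Atp5o and the context genes with values were named after their values had been seen. The members and lists were chosen with earlier results of these data known. Of 232 list entries 217 matched a symbol, 18 of them through a RefSeq synonym.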

Additional observations from a re-analysis of the deposited data

How the results depend on the processing

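The number of members called higher was 20 of 43, where 70.2% of all genes were called higher. It was within 1.5 times of that with a pseudocount of 0.1 (24 of 43), with no filter (17 of 50) and with a mean of at least 5 (18 of 40). In these settings 64.7%, 36.7% and 55.1% of all genes were called higher, in that order. It was 5 after median-of-ratios scaling, 4 with quantile normalization, 7 with equal totals outside the digestive enzymes, 3 of 36 with scaling and only genes above 0 everywhere, 10 with a pseudocount of 1 on the deposited scale and 39 of 43 with array weights. The shares of all genes called higher were 18.3%, 11.3%, 19.6%, 10.5%, 38.3% and 86.0%, in that order. With a library left out the number of members ran from 0 to 42 over both scales (9 to 42 deposited, 0 to 10 scaled), the highest without WT replicate 2 on each. WT replicate 2 alone, added after the data had been seen, gave 9, and 1 after scaling. Members called lower numbered 6 with quantile normalization, where 20.0% of all genes were called lower, and 0 in the other settings. Log2 changes of named genes that turned negative after scaling, with the same values when only genes above 0 everywhere were tested, were Atp5e -0.80, Atp5g1 -0.12, Atp5j2 -0.92, Cox4i1 -0.20, Cox5a -0.23, Cox6b1 -0.057, Cox7a2 -0.81, Cox8a -0.19, Sdhb -0.34, Uqcrh -0.80 and Uqcrq -0.93. With quantile normalization they were Atp5e -0.93, Atp5g1 -0.24, Atp5j2 -1.05, Cox4i1 -0.23, Cox5a -0.33, Cox6b1 -0.0896, Cox7a2 -0.89, Cox8a -0.27, Sdhb -0.47, Uqcrc1 -0.0545, Uqcrfs1 -0.16, Uqcrh -0.87 and Uqcrq -0.99, and with equal totals Atp5e -0.57, Atp5j2 -0.69, Cox5a -0.0135, Cox7a2 -0.59, Sdhb -0.12, Uqcrh -0.58 and Uqcrq -0.70. With a library left out, over both scales, the log2 changes that turned negative at least once ranged as follows: Atp5e -0.96 to 1.06, Atp5g1 -0.47 to 2.00, Atp5g2 -0.0776 to 2.29, Atp5g3 -0.0288 to 2.31, Atp5j2 -1.02 to 0.89, Cox4i1 -0.62 to 1.82, Cox5a -0.49 to 1.87, Cox6b1 -0.29 to 1.93, Cox7a2 -0.93 to 1.07, Cox7b -0.19 to 2.29, Cox8a -0.37 to 1.72, Sdha -0.0471 to 2.14, Sdhb -0.57 to 1.68, Uqcrc1 -0.0915 to 2.04, Uqcrfs1 -0.13 to 1.85, Uqcrh -1.08 to 1.07 and Uqcrq -1.18 to 1.09. Scaling turned the log2 difference of the summed levels to -0.15 for complex III, -0.14 for complex V and -0.0716 for all members. The Cox4i2 share differed by -0.00768 to 0.263 percentage points and the Cox7b2 share by -1.10 to 0.154 with a library left out. Apart from the change of scale, the cause of these moves was not tested. No paired analysis was possible because the labels carry no replicate numbers: those printed here follow the order of the samples, only name libraries and pair none. Depth is unknown, and the number of libraries limits precision.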
